A study of Homo sapiens with 9 samples.

Results

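CAL-1 cells are an established human line from a blastic plasmacytoid dendritic cell neoplasm, abbreviated BPDCN, an aggressive blood cancer whose cells resemble plasmacytoid dendritic cells. RNA sequencing libraries of these cells were made in 3 groups of 3, and each group's library numbered replicate 3 is compared here with its replicates 1 and 2. The members are therefore 3 of 9 libraries, 1 from each group, chosen by the replicate number in the sample titles and set against the other 6 with the group as a term, so that the knockdown does not enter the comparison. The NTC group has wild-type genotype in the labels; the groups KHSRPi#1 and KHSRPi#2 have KHSRP, an RNA-binding protein known for promoting mRNA decay, knocked down by CRISPR interference. What the numbers 1 and 2 of the knockdown groups stand for, when cells were harvested, and whether replicates came from separate cultures are stated in no label. All 9 libraries carry the same batch entry, and no label sets replicate 3 apart by time, medium, passage or preparation. Values are TPM (transcripts per 1000000, a length-scaled share of each library), and 10939 of 25540 gene symbols had a mean of at least 1 TPM over the 9 libraries and were tested. The gene nearest inside that limit was ZNF529-AS1, at a mean of 1.00 TPM, and the gene nearest outside it was LOC645177, at 0.99957 TPM.

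The gene groups described here belong to well-known control circuits of growing cells. When cholesterol in the endoplasmic reticulum is low, SREBP transcription factors are cut free from their anchor and raise the genes of sterol and fatty acid synthesis. Cells that grow fast invest in ribosome assembly in the nucleolus, in chaperones that fold new proteins, and in the proteasome that degrades unwanted ones; proteins entering the secretory route are folded by calreticulin, BiP and their partners, whose genes carry elements for the unfolded protein response. Plasmacytoid dendritic cells are known for endosomal Toll-like receptors, interferon production and a secretory-cell morphology.

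KHSRP, the targeted gene, was at 253, 244 and 216 TPM in replicates 1, 2 and 3 of NTC, at 35.1, 35.1 and 35.1 TPM in KHSRPi#1 and at 35.8, 33.7 and 36.5 TPM in KHSRPi#2. Every knockdown library was below every control, as its label says, and the replicate 3 difference of KHSRP was -0.04 on the log2(TPM + 1) scale (SE 0.049, limma adjusted p = 0.533), which did not pass. Of 29 markers of plasmacytoid dendritic cells and BPDCN, 24 reached a mean of 1 TPM, among them TCF4 at 210.5, TCL1A at 867, JCHAIN at 2948 and IRF8 at 2516 TPM. Those that did not were IL3RA, LILRA4, PACSIN1, PTCRA and SERPINF1. IL3RA, a defining marker of the lineage, is listed at 0 in all 9 libraries, and so is EIF4A1, a translation factor that every cell uses, so a 0 in this table can be a failed estimate. Relative depth, read from the spacing of low values, was 0.980 to 1.83 times that of NTC replicate 1 and put the replicate 3 libraries at 1.83, 1.42 and 1.11. The libraries of replicates 1 and 2 spanned 0.980 to 1.53, so the NTC replicate 3 library was the deepest of the 9 and the other replicate 3 libraries lay within the span of the rest. Markers of erythroid and megakaryocytic cells summed to 0.862 to 1.47 TPM in the replicate 3 libraries and 0.351 to 0.719 in the others, with 11 of 18 at 0 throughout. Epithelial, fibroblast and endothelial markers summed to 6.61 to 8.08 and 5.68 to 7.42 TPM, with 9 of 19 at 0 throughout, and T and NK cell markers to 36.3 to 39.9 and 34.5 to 38.7 TPM, with 7 of 20 at 0.

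The replicate 3 libraries stood apart from the other 6 in all 3 groups. On the first principal component of log2(TPM + 1), which held 38.3% of the variance, they scored 13.3, 12.3 and 14.1 for NTC, KHSRPi#1 and KHSRPi#2 (the order used for replicate 3 values throughout), and the other 6 scored between -8.79 and -3.96. A limma fit with group and replicate 3 as terms called 3314 genes at an adjusted p under 0.05, which is 30.3% of the 10939 tested. Of these 2045 were higher in replicate 3 (18.7%) and 1269 lower (11.6%). In 1806 genes (16.5%) all 3 replicate 3 libraries lay above all 6 others, and in 1202 (11%) below them. A fit with replicate number as 3 levels called 0 genes between replicate 2 and replicate 1, where 376 genes (3.44%) had an unadjusted p under 0.05, and it called 2450 (22.4%) between replicate 3 and replicate 1, 1589 higher (14.5%) and 861 lower (7.87%), and 2341 (21.4%) between replicate 3 and replicate 2, 1380 higher (12.6%) and 961 lower (8.79%).

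**Figure D1:**
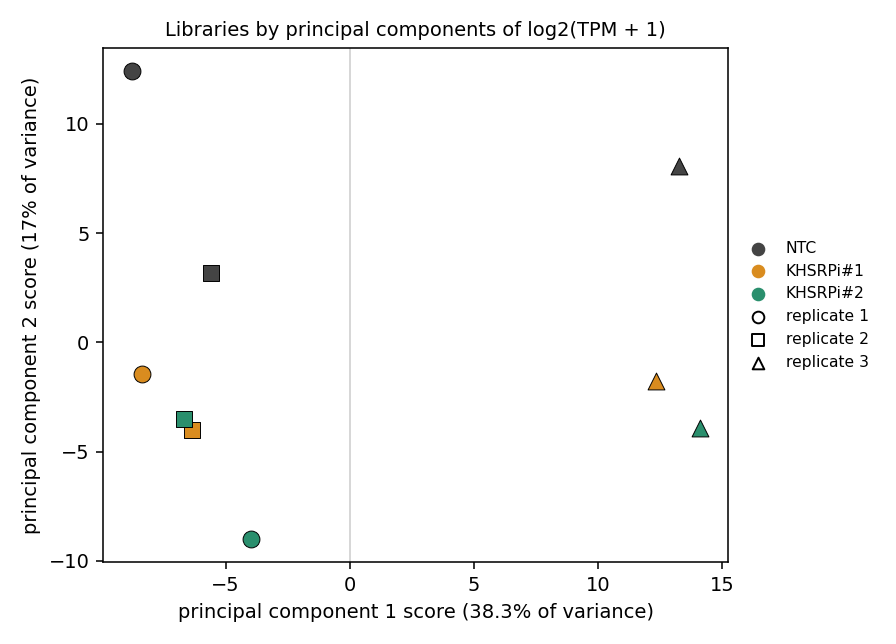
Scores of the 9 libraries on the first and second principal component of log2(TPM + 1) over the tested genes, each axis labelled with its percent of variance; colours are groups and shapes replicate numbers. The 3 triangles, replicate 3 of each group, lie at 12.3 to 14.1 on the horizontal axis and the other 6 libraries at -3.96 or less.

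The differences were many and mostly small. Among called genes the median absolute log2 difference was 0.23, and 93.3% were under 0.5; 9 reached 1, 8 of them higher. Over all tested genes the median was 0.03, and the median absolute difference was 0.10 for replicate 3 against 0.04 between replicates 2 and 1. How the calls divided between higher and lower depended on the scaling: of the called genes 61.7% were higher as deposited, 49.5% after median-ratio rescaling, 48.2% after quantile normalization and 44.2% after correction for GC content and length. Leaving out 1 replicate 3 library lowered the number of calls to 1802 without that of NTC, and to 1970 without that of KHSRPi#1 and likewise without that of KHSRPi#2, and 1375 genes were called whichever of the 9 libraries was left out (846 higher, 529 lower).

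Each group gives its own estimate of the replicate 3 difference, and these estimates share no library. Across the 10939 genes they correlated with r = 0.62 between NTC and KHSRPi#1, 0.62 between NTC and KHSRPi#2 and 0.63 between the knockdown groups, while the differences between replicates 2 and 1 correlated with r = -0.10, -0.17 and 0.02; genes are not independent replicates, so these are descriptions. The sign of the difference was the same in 77.8%, 77.6% and 77.1% of all tested genes for these pairs. Of the called genes 99.4% had one sign in all 3 groups, a share that calling on the mean over the groups largely fixes. A test of whether the difference depended on the knockdown called 1 gene (0.00914%), TMEM210, higher with the knockdown, and 210 genes (1.92%) had an unadjusted p under 0.05. A test of KHSRPi#2 against KHSRPi#1 also called 1 gene (0.00914%), RN7SL3, with 222 (2.03%) under an unadjusted 0.05. These tests rest on 3 residual degrees of freedom and 1 replicate 3 library a group, so a gene that did not pass is not shown to behave alike in the groups.

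**Figure D2:**
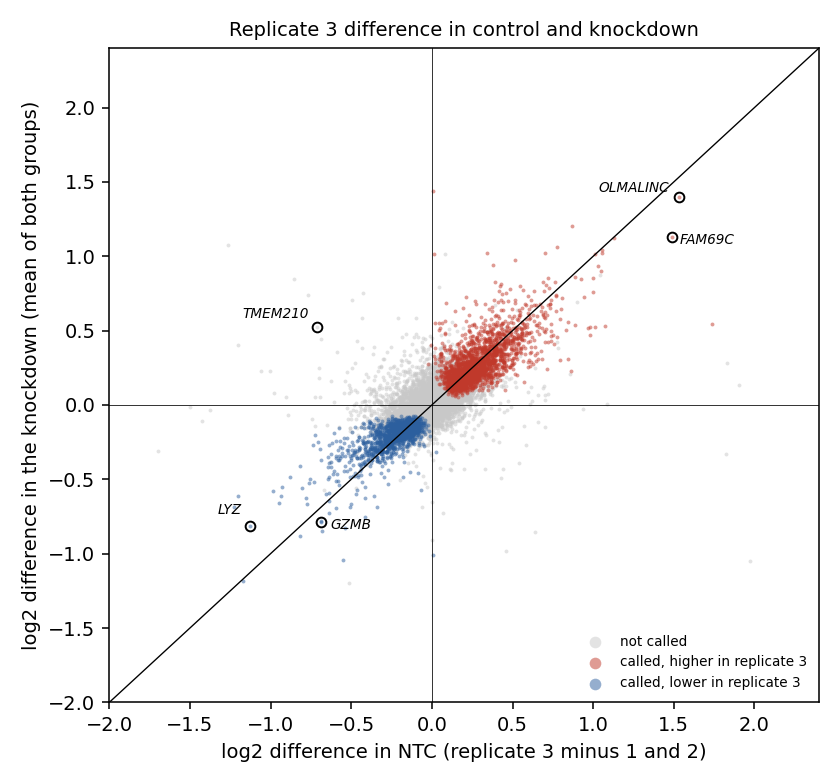
For each tested gene, the log2 difference of replicate 3 from the mean of replicates 1 and 2 in NTC (horizontal) and averaged over the knockdown groups (vertical); red and blue are genes called higher and lower, the diagonal marks equal differences, and 3 genes lie outside the axes. OLMALINC and FAM69C stand at the upper right, LYZ and GZMB at the lower left, and TMEM210 off the diagonal.

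Among called genes whose replicate 3 library lay beyond both others in every group, the largest increases were in noncoding RNAs and genes of varied function. RN7SL3 (log2 difference 1.81, adjusted p = 0.0048) and LINC01023 (0.96) were called higher too and are outside that ranking; RN7SL3, a copy of the signal recognition particle RNA, is listed at 0 in 7 libraries, KHSRPi#1 replicate 3 among them, and was not called without NTC replicate 3 or with robust eBayes, nor was LINC01023 without any of 3 libraries (adjusted p up to 0.177). The long noncoding RNA OLMALINC led the ranking, at 82.9, 87.9 and 89.8 TPM in the replicate 3 libraries and 25.6 to 34.1 TPM (median 32.4) in the other 6, a log2 difference of 1.44 (SE 0.055, adjusted p = 1.08e-07). The lowest replicate 3 library lay far above the highest of the other 6. FAM69C, a kinase-like membrane protein, was at 37.1, 31.5 and 28.3 TPM against 11.1 to 15.96 TPM (median 12.6), a log2 difference of 1.25 (SE 0.11, adjusted p = 2.43e-05). TNNT3, a troponin of fast skeletal muscle, was at 45.4, 62.1 and 46.6 TPM against 19.1 to 27.9 TPM (median 22.3), and ZC3H6, a zinc finger protein, at 4.63, 4.08 and 4.84 TPM against 1.53 to 1.999 TPM (median 1.68). RFLNB, which binds filamin, was at 78.1, 68.5 and 69.9 TPM against 32.8 to 38.996 TPM (median 36.7). IFITM1, an interferon-induced membrane protein, was at 25.5, 21.4 and 21.4 TPM against 9.44 to 15.99 TPM (median 9.87), and RAB26, a GTPase of secretory granules, at 5.50, 5.42 and 5.63 TPM against 1.89 to 3.06 TPM (median 2.51). In none of these 7 genes did the replicate 3 libraries overlap the others. Picking genes by the size of the difference or by adjusted p favours such separation, here and in the lists below. A lack of overlap in genes so picked is therefore a description and no further evidence. The remaining 5 of the 12 largest increases in the ranking were FOS, LINC01412, SPRY4-AS1, CHI3L2 and LOC102723345, all at low levels. FOS, a subunit of the AP-1 transcription factor, was at 6.18, 2.85 and 11.1 TPM against 1.25 to 4.002 TPM (median 2.19), so that KHSRPi#1 replicate 3 lay inside the range of the other libraries although it exceeded both others of its own group. FOS was not called without KHSRPi#2 replicate 3, nor LOC102723345 without NTC replicate 3 (adjusted p up to 0.103 and 0.0634 over the alternatives); named genes for which no such loss is given were called whichever library was left out.

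The largest decreases, ranked in the same way, included several genes of immune cells. LYZ, the antibacterial enzyme lysozyme, was at 36.6, 41.6 and 36.9 TPM in replicate 3 and 59.1 to 90.8 TPM (median 72.5) in the other libraries, a log2 difference of -0.92 (SE 0.081, adjusted p = 3.01e-05). GPR183, an oxysterol receptor that guides immune cells, was at 33.7, 49.8 and 49.7 TPM against 63.9 to 81.01 TPM (median 77.3), and RGS1, a regulator of G protein signalling, at 87.02, 96.5 and 97.01 TPM against 135 to 168 TPM (median 158). All 3 replicate 3 libraries were lowest for these 3 genes. TNFRSF17, the receptor BCMA of plasma cells, was at 2.33, 3.11 and 3.60 TPM against 5.57 to 7.11 TPM (median 6.36), and SLAMF7, a surface receptor of lymphocytes and plasma cells, at 2.17, 2.76 and 3.02 TPM against 4.59 to 5.69 TPM (median 4.86). GZMB, the serine protease granzyme B, differed between control and knockdown as well: it was at 47.7, 46.8 and 28.98 TPM in replicates 1, 2 and 3 of NTC, at 99.4, 98.2 and 56.7 TPM in KHSRPi#1 and at 91.8, 99.7 and 55.1 TPM in KHSRPi#2. Replicate 3 was the lowest of each group, with a log2 difference of -0.75 (SE 0.040, adjusted p = 9.86e-07), but the replicate 3 libraries of the knockdown lay above all NTC libraries. PNOC, a neuropeptide precursor, fell by 0.88 on the log2 scale from low levels. HIST1H3E, a replication-dependent histone H3 gene, had the largest decrease, -1.18 (SE 0.14, adjusted p = 0.000133), at 0.587, 0.503 and 0 TPM against 1.28 to 2.66 TPM (median 2.03). The histone gene HIST1H4J (-0.79) was called lower but is outside the ranking, and was not called without any of 6 libraries (adjusted p up to 0.197). These 2 genes do not stand for their list, replication-dependent histone genes, whose mRNAs have no poly(A) tail. Of its 48 tested members 5 were higher and 2 lower (10.4% and 4.17%), both below the shares of all tested genes. The list's median was 0.17 (-0.02, 0.28 and 0.005 in NTC, KHSRPi#1 and KHSRPi#2). The rest of the 12 largest decreases in the ranking were LOC101928429, SCARNA7, CIRBP-AS1 and CAMTA1-DT, which are noncoding RNAs.

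**Figure D3:**
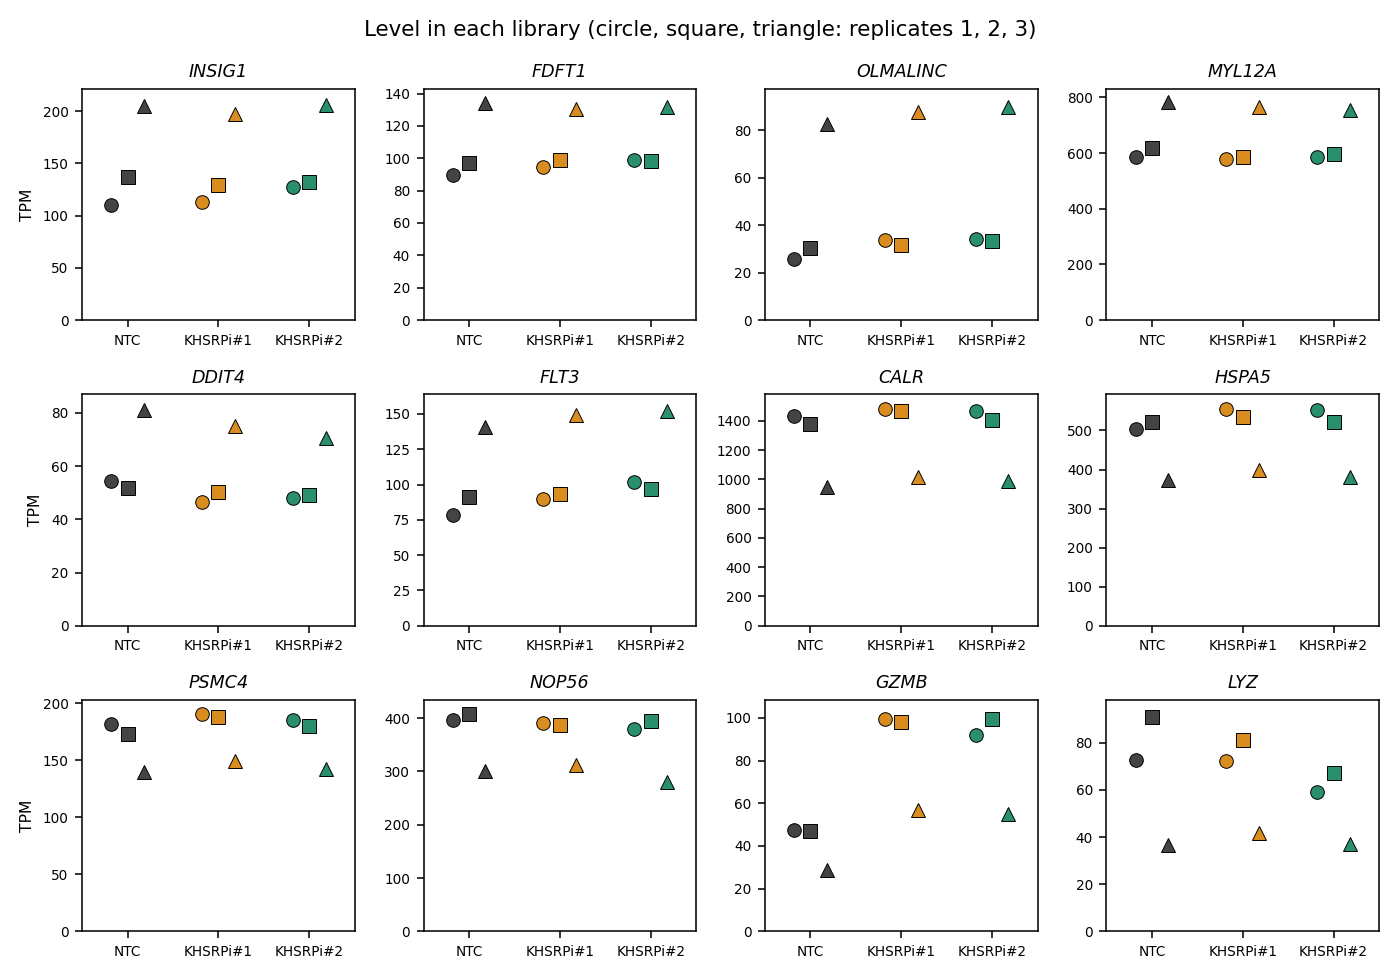
TPM (linear axis from 0) of 12 genes in each of the 9 libraries, by group; circles, squares and triangles are replicates 1, 2 and 3. The triangles are the highest of each group for the first 6 genes (INSIG1 to FLT3) and the lowest for the last 6 (CALR to LYZ).

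Under the same condition on every group, 3 of the 6 most abundant genes that rose encode proteins of the actin cytoskeleton and 3 ribosomal proteins. Thymosin beta 4 (TMSB4X), which binds actin monomers, was at 10927, 10727 and 11099 TPM in replicate 3 and 7909.7 to 8974 TPM (median 8182) in the others. Beta-actin (ACTB) was at 8296, 7860.1 and 7835 TPM against 5977 to 6719.6 TPM (median 6498), and gamma-actin (ACTG1) at 5693, 5536 and 5685 TPM against 4442 to 4927 TPM (median 4697). The ribosomal protein genes RPL12, RPL4 and RPL13A were higher by 0.17, 0.09 and 0.10 on the log2 scale. The 6 most abundant genes that fell were RPS12 (-0.12), GAPDH (-0.15), FTL (-0.08), the mitochondrial ribosomal RNA listed as RNR1 (-0.36), HSP90AB1 (-0.21) and HSPA8 (-0.28). ACTB and GAPDH, often taken as reference genes, thus moved in opposite directions, as they did under each scaling tried. Median-ratio rescaling and quantile normalization each ended the calls of RPS12, FTL, RPL4 and RPL13A, and the RPS12 difference was 0.00 under the latter. Leaving out 1 library ended the calls of RPL13A and RNR1 (NTC replicate 3), of RPS12 (replicate 3 of NTC or KHSRPi#1), and of RPL4 and FTL (any of 8 and any of 7 of the 9 libraries, adjusted p up to 0.307 and 0.181 over the alternatives).

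Genes of cholesterol synthesis and uptake were higher in replicate 3. Of 26 tested members of the list 22 rose and 1 fell, against 18.7% and 11.6% of all tested genes, and the median log2 difference was 0.29 (0.31, 0.28 and 0.24 in NTC, KHSRPi#1 and KHSRPi#2). HMGCS1, which makes the HMG-CoA that enters the pathway, was at 155, 151 and 155 TPM in replicate 3 and 84.1 to 108 TPM (median 102) in the others, a log2 difference of 0.65 (SE 0.069, adjusted p = 7.20e-05). FDPS, which builds farnesyl diphosphate, was at 487, 497 and 484 TPM against 369 to 403 TPM (median 383). FDFT1 (squalene synthase) was at 134, 130.4 and 131 TPM against 89.6 to 98.9 TPM (median 97.9), with 0.45 (SE 0.038, adjusted p = 2.21e-05), and SQLE (squalene epoxidase) at 195, 195 and 198 TPM against 138 to 161 TPM (median 153). INSIG1, which retains SREBP precursors in the endoplasmic reticulum and is itself a SREBP target, was at 205, 197 and 206 TPM against 109.9 to 137 TPM (median 128), a log2 difference of 0.70 (SE 0.062, adjusted p = 3.03e-05). The replicate 3 libraries lay above all 6 others in each of these 5 genes, and in 22 members in all. Outside the 5 with the smallest adjusted p, and named after their values were seen, the regulator SREBF2 rose by 0.25. The member that fell was TMEM97 (-0.15), a membrane protein of sterol handling, and 3 members were not called. TMEM97 lost its call without any one replicate 3 library, with adjusted p up to 0.095, while 18 members were called higher whichever library was left out. Between replicates 2 and 1 the list had a median of 0.10, and replicate 1 of NTC and of KHSRPi#1 held the least INSIG1 and HMGCS1 of the 9.

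Fatty acid synthesis genes followed, with 10 of 18 tested members higher and 0 lower and a median of 0.19. These shares were 55.6% and 0%, against 18.7% and 11.6% of all tested genes. The desaturase FADS2 was at 190.02, 183 and 193 TPM against 117 to 135 TPM (median 129.6), with a log2 difference of 0.56 (SE 0.046, adjusted p = 2.05e-05), and FADS1 at 110.5, 106 and 104 TPM against 72.2 to 86.6 TPM (median 79.1). ACSS2, which makes acetyl-CoA from acetate, was at 24.998, 26.5 and 24.4 TPM against 16.1 to 17.9 TPM (median 16.8), and SREBF1, which encodes the SREBP of fatty acid synthesis, at 27.2, 25.9 and 24.99 TPM against 15.2 to 20.04 TPM (median 17.95). SCD, the stearoyl-CoA desaturase, was at 376, 385 and 388 TPM against 262 to 319 TPM (median 313). OLMALINC lies next to SCD: on hg38 (GENCODE 29) SCD spans chr10:100347124-100364834 and OLMALINC chr10:100373513-100454043, both on the plus strand, with 8678 bases and no other tested gene between them. Their log2 differences were 0.38, 0.38 and 0.31 for SCD and 1.53, 1.40 and 1.39 for OLMALINC in NTC, KHSRPi#1 and KHSRPi#2. Of 7 tested targets of the liver X receptor and cholesterol efflux genes 3 rose and 0 fell. These were SREBF1, which is on both lists, MYLIP (0.42), a ubiquitin ligase, and the lysophospholipid acyltransferase LPCAT3 (0.22), which was not called without replicate 3 of NTC or KHSRPi#1 (adjusted p up to 0.0581).

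One sterol gene with a sterol regulatory element (TCACNCCAC, either strand) in its RefSeq promoter window is shown because it encodes the sterol SREBP itself. The window runs from 250 bases before to 50 after the start; the capitals mark the element, and the stretch is chr22:41832962-41832990, plus strand, GRCh38.p14.
SREBF2: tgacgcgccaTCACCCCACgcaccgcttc
The letters were found in 1 of 20 sterol list genes with a window and in 2 of 17 of the fatty acid list (ACSL1 and MID1IP1, both higher, ACSL1 not without NTC replicate 3, adjusted p = 0.0566). They were found in 1.37% of the tested genes with a window and in 1.13% of all 35116 windows.

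Genes of the actin cytoskeleton and adhesion were higher as well, 22 of 44 tested members against 3 lower, with a median of 0.11. The higher and lower shares were 50% and 6.82%, against 18.7% and 11.6% of all tested genes. The myosin light chain MYL12A was at 782, 767 and 754 TPM in replicate 3 and 581 to 617 TPM (median 584) in the other libraries, a log2 difference of 0.38 (SE 0.028, adjusted p = 9.47e-06). Tropomyosin 4 (TPM4), which coats actin filaments, was at 240.3, 233 and 221 TPM against 172 to 186 TPM (median 177), and galectin 1 (LGALS1) at 431, 414 and 421 TPM against 309.9 to 348 TPM (median 325). No replicate 3 library overlapped the others in MYL12A, TPM4, LGALS1, TMSB4X or ACTB. The members that fell were annexin A1 (ANXA1, -0.40), lamin A (LMNA, -0.28) and S100A10 (-0.11), named after their values were seen; S100A10 lost its call when any of 4 libraries was left out (adjusted p up to 0.199). Under median-ratio rescaling the list had 16 higher and 6 lower, and after GC and length correction 19 and 9. CArG boxes, the element of serum response factor, were found in the promoter windows of 5 of 38 members with a window. They were found in 1.56% of the tested genes with a window and in 1.29% of all windows. ACTG1, ACTN1, FLNA and TPM4 among the 5 members were higher, FLNA not when any of 5 libraries was left out (adjusted p up to 0.188), and CXCR4 (-0.10) was not called.

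**Figure D4:**
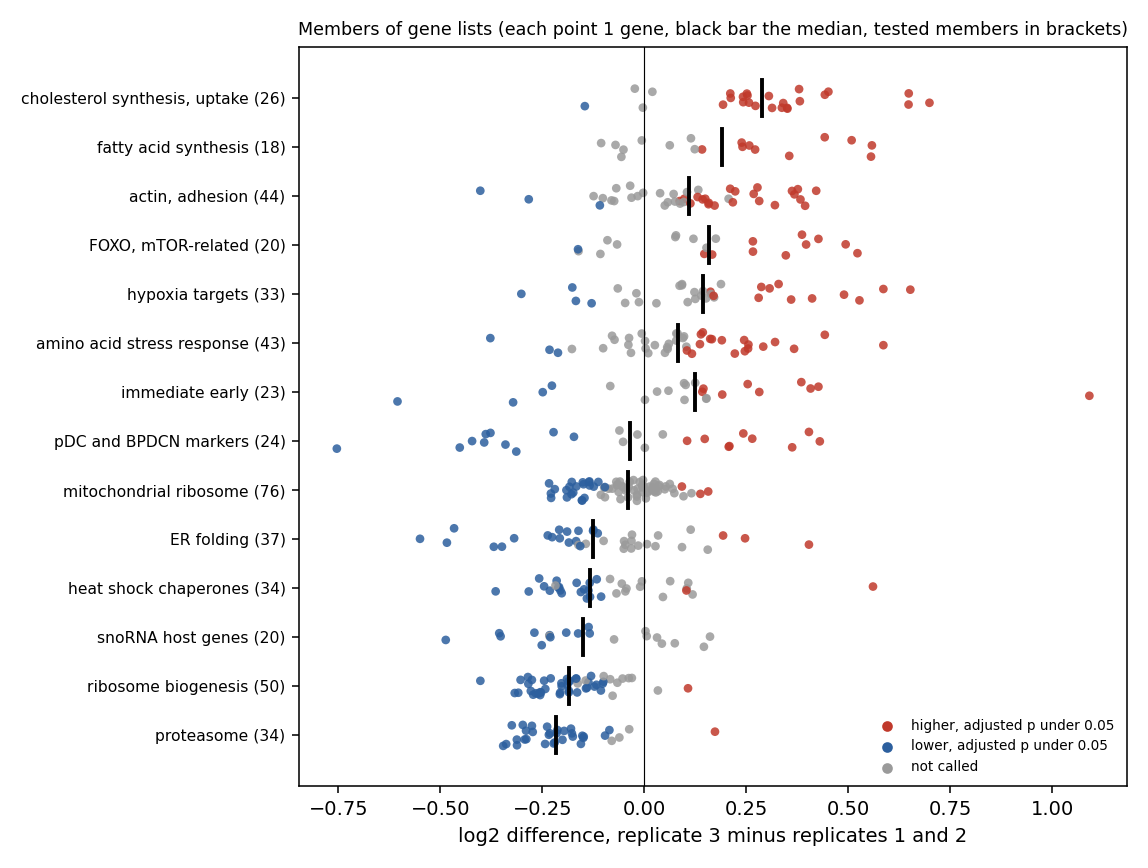
Log2 difference of replicate 3 from replicates 1 and 2 (horizontal) for each tested member of 14 gene lists; red and blue points passed at an adjusted p under 0.05 and the black bar is the list's median. Medians run from 0.29 for cholesterol synthesis and uptake to -0.22 for the proteasome.

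Proteasome subunit genes were lower in replicate 3 nearly throughout. Of 34 tested members 30 fell and 1 rose (88.2% and 2.94%, against 11.6% and 18.7% of all tested genes). The median log2 difference was -0.22 (-0.20, -0.22 and -0.21 in NTC, KHSRPi#1 and KHSRPi#2). The ATPases at the base of the regulatory particle led. PSMC4 was at 139.7, 149 and 143 TPM in replicate 3 and 173 to 191 TPM (median 184) in the others, a log2 difference of -0.35 (SE 0.031, adjusted p = 3.03e-05). PSMC5 was at 296, 298 and 287 TPM against 349.6 to 372 TPM (median 362), PSMC3 at 244, 272 and 257 against 303 to 336 TPM (median 321) and PSMC1 at 197, 214 and 201 against 236 to 259.8 TPM (median 245). PSMD2, a scaffold of the same particle, was at 216, 238 and 229.9 TPM against 265 to 299 TPM (median 284). In 29 members all replicate 3 libraries were below all others, and 26 members were called lower whichever library was left out. The exception was PSMD7 (0.17), a subunit of the lid, named after its value was seen; PSMB1, PSMD14 and NFE2L1, a transcription factor of proteasome genes, were not called (-0.06, -0.04 and -0.08). Summed over the list, replicate 3 libraries held 10143 to 10359 TPM and the others 11318 to 11869. These are abundant genes, and among the tenth of tested genes with the highest mean TPM 14.9% were higher and 26% lower.

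Ribosome assembly genes of the nucleolus fell in a like way. Of 50 tested members 39 were lower and 1 higher (78% and 2%, against 11.6% and 18.7% of all tested genes). The median was -0.19 (-0.19, -0.19 and -0.19 in the 3 groups). NOP56, a core protein of box C/D snoRNPs, was at 301, 311 and 279 TPM in replicate 3 and 380.2 to 407 TPM (median 393) in the others, a log2 difference of -0.40 (SE 0.033, adjusted p = 1.82e-05). NOP2, which methylates ribosomal RNA, was at 109, 109 and 104 TPM against 131 to 139 TPM (median 134), and UTP14A, of the small subunit processome, at 72.4, 75.8 and 72.6 TPM against 88.7 to 94.9 TPM (median 90.98). RRS1 was at 106, 103 and 98.5 TPM against 122 to 135 TPM (median 125) and MRTO4 at 118, 119.7 and 118 against 140.03 to 148 TPM (median 144), both large subunit assembly factors. None of the 5 overlapped. The abundant nucleolar proteins NPM1 and NCL, named after their values were seen, fell by 0.19 and 0.14; the one member that rose was NOP10 (0.11), which kept its call under quantile normalization and lost it after the other rescalings and without any of 4 libraries (adjusted p up to 0.233). NCL lost its call without KHSRPi#2 replicate 3 (adjusted p = 0.0666). The letters CACGTG, the E-box bound by MYC among others, were found in the promoter windows of 19 of 41 members with a window and of 13.3% of the 8336 tested genes with one; MYC itself was higher in replicate 3 (0.25 (SE 0.035, adjusted p = 0.000418)).

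Related lists divided. Small nucleolar RNA host genes, whose introns carry snoRNAs, had 11 of 20 tested members lower and 0 higher (55% and 0%). Their median was -0.15, and 6 were lower without NTC replicate 3. SNHG12 was at 24.8, 26.6 and 27.3 TPM against 32.8 to 40.7 TPM (median 37.4), SNHG5 at 417, 387 and 393 against 438 to 510.01 TPM (median 478), SNHG7 at 26.9, 29.5 and 28.7 against 33.4 to 39.2 TPM (median 36.9) and SNHG1 at 348, 380.2 and 344 against 402 to 452 TPM (median 432). SNHG15 was lower too (-0.23). GAS5, the host gene best known for accumulating when growth stops, was not called (0.07, adjusted p = 0.121). Cytosolic ribosomal protein genes did not follow the assembly factors: 4 of 79 were higher and 5 lower, both below the share of all genes, with up to 8 higher under quantile normalization and 11 lower after GC and length correction. Of 76 mitochondrial ribosomal protein genes 22 fell and 3 rose (28.9% and 3.95%), led by MRPL20 (-0.23), MRPL15 (-0.19) and MRPS7 (-0.18). The count of lower genes was 36 after GC and length correction and 11, 14 and 10 without replicate 3 of NTC, KHSRPi#1 and KHSRPi#2. Of 34 translation factors 13 fell and 3 rose (38.2% and 8.82%), led by EIF4G2 at 480.4, 509 and 499.8 TPM against 581 to 655 TPM (median 610.3) and EIF5A at 887, 876 and 872 TPM against 972 to 1067 TPM (median 996). Of these factors 8 were lower without KHSRPi#1 replicate 3 and 6 without that of KHSRPi#2. Among all tested genes 11.6% fell and 18.7% rose, and in the tenth with the highest mean TPM 26% and 14.9%. The part of abundance in the counts of these lists was not tested.

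Genes of protein folding in the endoplasmic reticulum were lower, led by calreticulin and BiP. Calreticulin (CALR), a calcium-binding chaperone of glycoproteins, was at 945, 1015 and 986 TPM in replicate 3 and 1378 to 1478 TPM (median 1449) in the others, a log2 difference of -0.55 (SE 0.027, adjusted p = 5.31e-07). BiP (HSPA5), the main chaperone of the compartment, was at 373, 398 and 381 TPM against 503 to 555 TPM (median 528), with -0.47 (SE 0.031, adjusted p = 6.39e-06). CRELD2 was at 21.8, 23.02 and 21.4 TPM against 29.7 to 33.1 TPM (median 31.3). The exchange factor HYOU1 was at 112, 116 and 110.1 TPM against 137 to 153 TPM (median 147), and the BiP cochaperone DNAJB11 at 134, 138 and 129.7 TPM against 166 to 181 TPM (median 168). All 3 replicate 3 libraries were the lowest for each of the 5. Of 37 tested members 18 fell and 3 rose (48.6% and 8.11%, against 11.6% and 18.7% of all tested genes). The median was -0.12 (-0.09, -0.12 and -0.14 in the 3 groups). Those that rose were DERL3 (0.40), EDEM1 (0.25) and CREB3L2 (0.19), and the regulator XBP1 and the sensor ERN1 were not called (-0.03 and 0.11). EDEM1 was not called without KHSRPi#1 replicate 3 (adjusted p = 0.0525), nor CREB3L2 without any of 6 libraries (up to 0.262).

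Several of these genes carry ER stress response elements in their RefSeq promoter windows, shown here because factors of the unfolded protein response are known to bind them. The first form, CCAAT and CCACG with 9 bases of any kind between them, was found on either strand in 8 of 33 list members with a window and in 0.18% of the tested genes with one. The second form, ATTGG and CCACG with 1 base between them, was found in 3 of 33 and in 0.132%; the forms do not overlap each other. Each stretch below is printed in the direction of the element, with the element in capitals, and lies before the start of the gene.
HSPA5: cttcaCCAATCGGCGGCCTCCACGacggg
CALR: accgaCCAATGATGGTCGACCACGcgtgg
CRELD2: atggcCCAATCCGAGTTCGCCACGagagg
HSP90B1: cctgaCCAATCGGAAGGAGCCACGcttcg
XBP1: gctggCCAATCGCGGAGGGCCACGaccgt
HYOU1: cgcgtactcATTGGACCACGtcccaggcc
SDF2L1: agggttttgATTGGTCCACGcttccgagg
On GRCh38.p14 these are chr9:125241386-125241414 (minus strand) for HSPA5, chr19:12938379-12938407 (minus) for CALR, chr22:49918549-49918577 (minus) for CRELD2 and chr12:103930211-103930239 (plus) for HSP90B1. XBP1 is at chr22:28800598-28800626 (minus), HYOU1 at chr11:119057265-119057293 (plus) and SDF2L1 at chr22:21642105-21642133 (minus). HYOU1 has another copy of the second form farther from its start, and HSP90B1 another of the first form nearer to its start. Of the 8 genes with the first form CALR, HSPA5, CRELD2, HSP90B1, CANX and PDIA6 were lower, and XBP1 and ERO1B were not called (-0.03 and -0.03). Leaving out replicate 3 of KHSRPi#2 ended the calls of CANX, HSP90B1 and PDIA6, with adjusted p up to 0.431 over the alternatives for CANX. Of the 3 with the second form HYOU1 and SDF2L1 (-0.32) were lower and HERPUD1 (0.03) was not called. HSP90B1, with 2 copies of the first form, fell by 0.16 and CALR, with 1, by 0.55. HYOU1, with 2 copies of the second form, fell by 0.37 and SDF2L1, with 1, by 0.32. The part of these elements in the differences was not tested.

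Cytosolic and mitochondrial chaperones were lower too, 19 of 34 tested members against 2 higher, with a median of -0.13. The lower and higher shares were 55.9% and 5.88%, against 11.6% and 18.7% of all tested genes. In the tenth of tested genes with the highest mean TPM they were 26% and 14.9%. The part of abundance in the chaperone count was not tested. The HSP40 protein DNAJA1 was at 443, 479.8 and 445 TPM in replicate 3 and 537 to 626 TPM (median 593) in the others, a log2 difference of -0.36 (SE 0.035, adjusted p = 4.20e-05). HSPA8, the constitutive HSP70, was at 2761, 2776 and 2674 TPM against 3196 to 3495 TPM (median 3303), HSP90AA1 at 2285, 2386 and 2342 TPM against 2523 to 3066 TPM (median 2834) and the chaperonin subunit CCT3 at 801, 814 and 815 TPM against 907 to 999 TPM (median 952). In these 4 genes the groups did not overlap. The small heat shock protein HSPB1 went the other way, at 29.4, 23.97 and 23.7 TPM against 15.6 to 19.4 TPM (median 16.5). The count of lower members was 12 without replicate 3 of KHSRPi#1 and 12 without that of KHSRPi#2. A heat shock element (GAA, TTC and GAA with 2 bases of any kind between neighbours, either strand) was found in 7 of 30 members with a window, all of them lower, and in 0.456% of tested genes with one. HSPA8 has 2, shown with the element in capitals from chr11:123062346-123062374 (minus strand) and chr11:123062171-123062199 (plus strand).
HSPA8 distal: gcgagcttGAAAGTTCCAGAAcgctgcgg
HSPA8 proximal: ctatcttaGAACCTTCCAGAAggggcccg

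**Figure D5:**
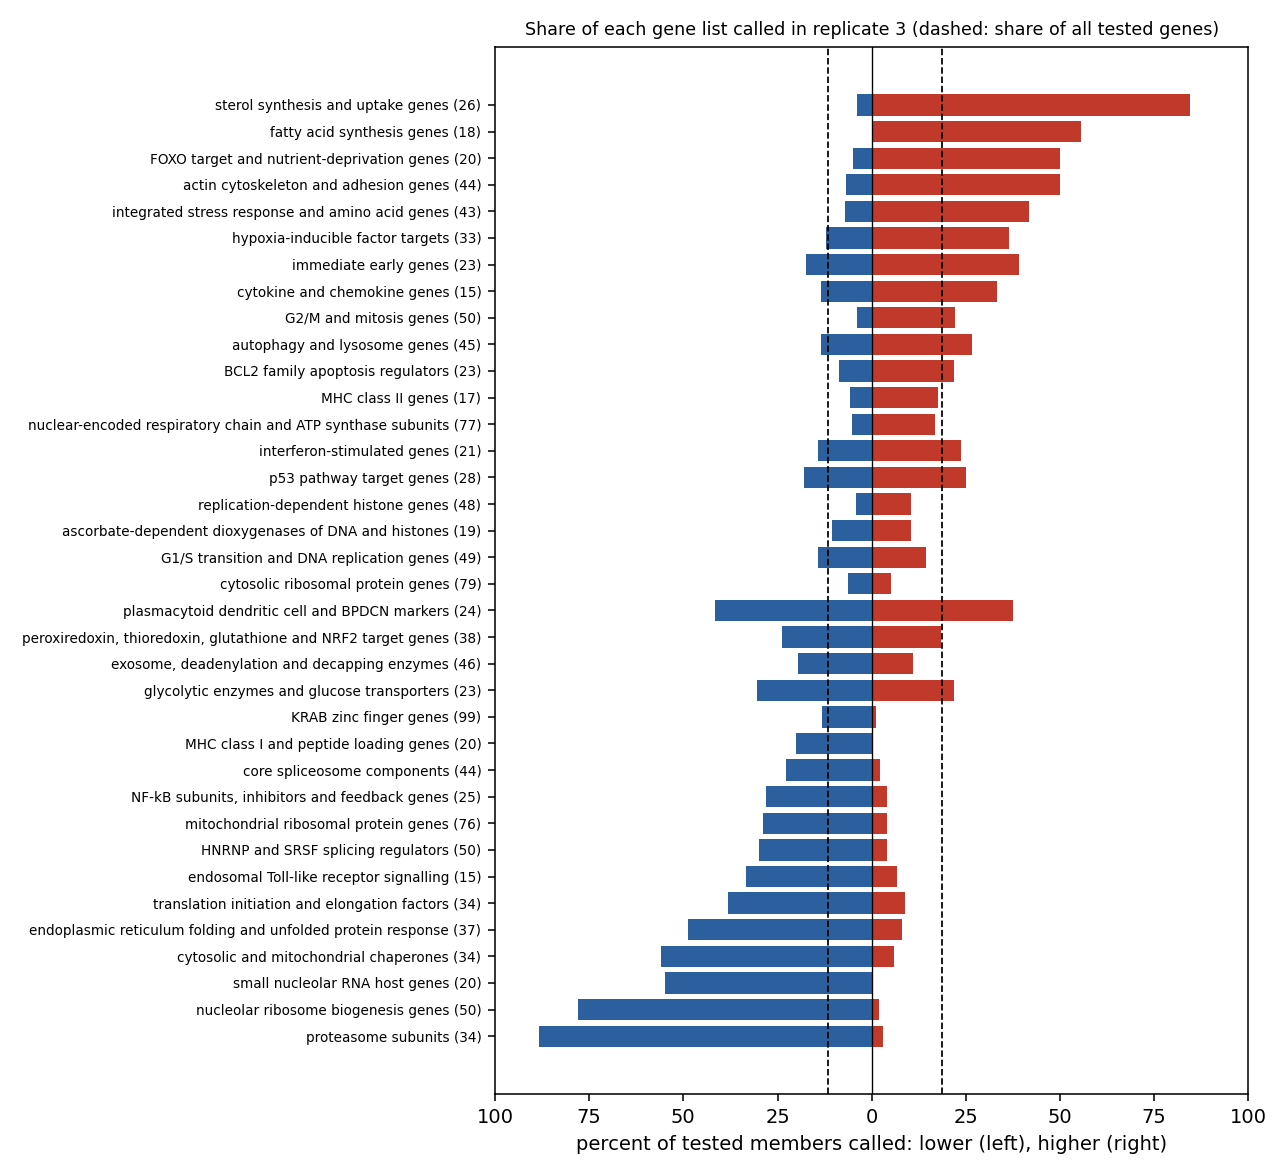
Percent of the tested members of 36 gene lists (those with at least 15 tested) called lower (left, blue) and higher (right, red) in replicate 3, with the number tested in brackets; dashed lines mark 18.7% and 11.6%, the shares of all tested genes. The sterol list has the highest share called higher and the proteasome list the highest share called lower.

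Genes of nutrient and amino acid shortage were called higher more often than lower, as were all tested genes (18.7% against 11.6%). Of 43 tested members of the integrated stress response list 18 rose and 3 fell (41.9% and 6.98%), with a median of 0.08. DDIT4, an inhibitor of mTORC1 signalling, was at 81.1, 75.2 and 70.5 TPM in replicate 3 and 46.3 to 54.6 TPM (median 49.7) in the others, a log2 difference of 0.59 (SE 0.041, adjusted p = 8.64e-06). The alanyl-tRNA synthetase AARS was at 339, 365 and 359.8 TPM against 282 to 326 TPM (median 299) and the gluconeogenic enzyme PCK2 at 43.8, 48.6 and 52.03 TPM against 33.9 to 41.9 TPM (median 40.1). The members that fell were PPP1R15A, the feedback phosphatase subunit, ATF5 and DDIT3 (-0.38, -0.23 and -0.21), and ATF4, the central factor of the response, was not called (0.06, adjusted p = 0.164). DDIT3 lost its call when any of 7 libraries was left out (up to 0.203). The list's count was 8 higher without NTC replicate 3. Of 20 FOXO target and nutrient-deprivation genes 10 rose and 1 fell (50% and 5%), with a median of 0.16. CCNG2 was at 11.6, 10.5 and 11.9 TPM against 7.14 to 8.01 TPM (median 7.62), and TSC22D3, YPEL5, SESN1 and KLF2 rose by 0.49, 0.40, 0.27 and 0.43. The count of higher genes on this list was 6 without replicate 3 of NTC and 5 without that of either knockdown group.

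Hypoxia targets and glycolytic enzymes, which share 10 tested genes, divided within themselves. Of 33 hypoxia-inducible factor targets 12 rose and 4 fell (36.4% and 12.1%). Of 23 glycolysis genes 5 rose and 7 fell (21.7% and 30.4%). Among all tested genes 18.7% rose and 11.6% fell. The brain-type aldolase ALDOC was at 38.98, 34.8 and 32.9 TPM against 19.2 to 26.4 TPM (median 22.3), the pyruvate dehydrogenase kinase PDK1 at 8.74, 10.4 and 9.76 TPM against 5.67 to 7.57 TPM (median 6.52) and the mitophagy receptor BNIP3L at 18.5, 18.6 and 18.6 TPM against 13.5 to 15.3 TPM (median 14.2). MXI1, a MYC antagonist, rose by 0.33. The glucose transporter SLC2A1 fell, at 68.2, 68.1 and 67.9 TPM against 79.9 to 90.7 TPM (median 84.1), as did the abundant enzymes ENO1 (-0.18) and ALDOA (-0.19), while PFKL rose (0.23). CA9 and ADM, strongly hypoxia-induced genes, are listed at 0 in all libraries, which in this table can be a failed estimate. After GC and length correction 11 glycolysis genes were lower, and without KHSRPi#2 replicate 3 the lower hypoxia targets numbered 2.

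Markers of the plasmacytoid dendritic cell lineage were called often and in both directions. Of 24 tested 9 rose and 10 fell (37.5% and 41.7%, against 18.7% and 11.6% of all tested genes), with a median of -0.03. The summed TPM was 9195 to 9599.9 in replicate 3 and 8264 to 9399.9 in the others. Transcription factors divided: RUNX2 was at 82.4, 80.5 and 83.9 TPM against 58.3 to 68.2 TPM (median 59.1) and IRF8 at 2796, 2791 and 2824 TPM against 2284 to 2566 TPM (median 2352), whereas SPIB was at 41.5, 44.6 and 47.4 TPM against 55.3 to 61.4 TPM (median 58.2) and BCL11A fell by 0.17; TCF4, the master regulator, was not called (-0.05, adjusted p = 0.497). Among surface proteins the semaphorin receptor NRP1 fell, at 13.2, 14.99 and 15.2 TPM against 19.4 to 22.4 TPM (median 19.7), as did the lectin CLEC4C (BDCA-2), at 46.7, 61.2 and 63.8 TPM against 58.99 to 83.8 TPM (median 74.04), and the chemokine receptor CXCR3, at 17.6, 18.7 and 19.1 TPM against 22.5 to 26.98 TPM (median 24.04). NCAM1 and CD4, markers of BPDCN, rose by 0.21 and 0.10. The lysosomal transporter SLC15A4 rose, at 299, 317 and 324 TPM against 231 to 263 TPM (median 240.5), as did the glucosylceramide synthase UGCG (0.26), MZB1 (0.21) and PLAC8 (0.15). The secretin gene SCT fell (-0.39), and TCL1A, TCL1B, JCHAIN and FCER1A were not called; JCHAIN was at 2769, 2968 and 2851 TPM against 2613 to 3136 TPM (median 3062). The CLEC4C values overlapped between the replicate 3 libraries and the rest. Without NTC replicate 3 the list had 6 lower members; BCL11A and CD4 were not called without any one replicate 3 library, MZB1 without that of KHSRPi#1, and SCT without that of NTC or KHSRPi#2 (adjusted p up to 0.204 for BCL11A). In bulk libraries fewer cells of a type and less RNA per cell cannot be told apart.

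Of 15 tested genes of endosomal Toll-like receptor signalling 5 fell and 1, SLC15A4, rose (33.3% and 6.67%, against 11.6% and 18.7% of all tested genes). SLC15A4, TLR7, TLR9 and IRF7 are also on the lineage marker list above, so their calls are counted in both lists. TLR9, the receptor of unmethylated DNA, was at 3.59, 4.81 and 5.08 TPM in replicate 3 and 5.64 to 7.77 TPM (median 5.91) in the others, and TLR7, the receptor of single-stranded RNA, at 27.3, 31.1 and 31.1 TPM against 27.04 to 42.4 TPM (median 35.6), where the groups overlapped. Their chaperone UNC93B1 fell by 0.18, the adaptor MYD88 by 0.21 and the interferon regulator IRF7 by 0.31. Interferon-stimulated genes did not move as one, with 5 of 21 higher and 3 lower. These shares, 23.8% and 14.3%, were near the 18.7% and 11.6% of all tested genes. IFITM2, which restricts virus entry, rose with IFITM1, at 127, 102 and 99.1 TPM against 72.2 to 91.2 TPM (median 76.5), and STAT2 and USP18 rose by 0.26 and 0.24. SAMD9L, another antiviral gene, fell, at 2.91, 3.77 and 3.69 TPM against 5.32 to 6.37 TPM (median 6.09). Of 17 MHC class II genes 3 rose and 1 fell, the latter the class II activator CIITA (-0.23), shares of 17.6% and 5.88%, while the invariant chain CD74 was at 1716, 1725 and 1691 TPM against 1494 to 1630.3 TPM (median 1545). Of 20 MHC class I and peptide loading genes 0 rose and 4 fell, and CALR, PDIA3 and CANX among these are also on the folding list; PSME2 was the other (-0.11). Without NTC replicate 3 the calls of TLR7, TLR9, UNC93B1, CIITA, CD74, CANX and PSME2 were lost, and without KHSRPi#2 replicate 3 those of TLR7, MYD88, CIITA, CANX and PSME2 (adjusted p up to 0.431 over the alternatives). The Toll-like receptor list then had 2 and 3 lower members and the class I list 2 and 2, and after GC and length correction both had 9. TLR7 was also not called without NTC replicate 2, replicate 1, 2 or 3 of KHSRPi#1, or KHSRPi#2 replicate 1. CIITA lost its call without KHSRPi#1 replicate 3 or KHSRPi#2 replicate 1 as well, and CD74 without KHSRPi#1 replicate 3. The class II list had 1 higher member without replicate 3 of NTC or of KHSRPi#1, and 2 higher and 3 lower after GC and length correction.

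Cytokine and signalling feedback genes changed in both directions. Of 15 tested cytokines and chemokines 5 rose and 2 fell (33.3% and 13.3%, against 18.7% and 11.6% of all tested genes). IL1B was at 16.6, 12.04 and 12.5 TPM in replicate 3 and 6.07 to 8.52 TPM (median 6.68) in the others, a log2 difference of 0.87 (SE 0.061, adjusted p = 8.64e-06), and TNF at 24.2, 19.4 and 22.3 TPM against 14.6 to 20.5 TPM (median 16.3), where the groups overlapped. IL23A and IL18 rose by 0.47 and 0.51. Lymphotoxin beta (LTB) fell, at 2.61, 2.58 and 2.22 TPM against 3.89 to 5.52 TPM (median 4.56). Of 25 NF-kB subunits, inhibitors and feedback genes 7 fell and 1 rose: the subunit RELB was at 7.04, 6.91 and 7.32 TPM against 8.76 to 9.68 TPM (median 9.15), CD83, MAP3K14 and the inhibitor NFKBIA fell by 0.26, 0.32 and 0.18, and the feedback enzyme TNFAIP3 rose, at 36.3, 31.5 and 32.7 TPM against 22.01 to 29.3 TPM (median 24.4). Of 23 immediate early genes 9 rose and 4 fell. KLF4 fell to 5.23, 5.85 and 5.71 TPM from 8.68 to 9.65 TPM (median 9.002) and the ERK phosphatase DUSP5 by 0.32, while DUSP6, another ERK phosphatase, rose by 0.41 and IER2 by 0.39. Without replicate 3 of NTC or of KHSRPi#2 the immediate early list had 5 and 4 higher members and the NF-kB list 4 and 4 lower (13 after GC and length correction); NFKBIA was not called without KHSRPi#1 replicate 3 (adjusted p = 0.0884).

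Surface receptors and markers of related lineages also differed. The cytokine receptor FLT3 was at 141, 149 and 152 TPM in replicate 3 and 78.1 to 102 TPM (median 92.2) in the other libraries, a log2 difference of 0.68 (SE 0.048, adjusted p = 8.64e-06). On the list of monocyte, neutrophil and classical dendritic cell markers, of which 7 were tested, FLT3 and TYROBP (0.25) rose and LYZ and CD1C (-0.31) fell. The list summed to 539.6 to 570.3 TPM in replicate 3 and 557 to 590.01 in the others, with 6 of 25 members at 0 throughout, S100A8, S100A9 and ELANE among them. Of 9 tested B and plasma cell markers BLNK (0.16) and CD79A (0.42) rose and TNFRSF17, PRDM1 (-0.44) and FCRLA (-0.13) fell; the list summed to 993 to 1039 and 942 to 1031 TPM, with 4 of 19 at 0 throughout. Leaving out a replicate 3 library ended the calls of BLNK, CD79A, FCRLA and TYROBP, with adjusted p up to 0.213 for CD79A. The part of other cells in these differences was not tested.

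Splicing genes were lower more often than higher. Of 50 HNRNP and SRSF splicing regulators 15 fell and 2 rose: HNRNPM was at 493, 475 and 450.4 TPM in replicate 3 and 551 to 581 TPM (median 573) in the others, HNRNPU at 452, 457 and 452 TPM against 536 to 587 TPM (median 558), and HNRNPAB, SRSF6 and SRSF2 fell by 0.21, 0.32 and 0.18. Of 44 core spliceosome genes 10 fell and 1 rose, led by SF3B4 (-0.26), PHF5A (-0.24) and PRPF19 (-0.19). Lower and higher shares were 30% and 4% for the splicing regulators and 22.7% and 2.27% for the core spliceosome. Among all tested genes they were 11.6% and 18.7%, and in the tenth with the highest mean TPM 26% and 14.9%. The part of abundance in these counts was not tested. Of 46 exosome, deadenylation and decapping genes 5 rose and 9 fell; the deadenylase PAN2 was at 47.7, 62.7 and 51.2 TPM against 36.03 to 43.3 TPM (median 38.8), the exonuclease XRN1 rose by 0.34 and LSM1 fell by 0.21. Median-ratio rescaling called 17 spliceosome genes lower. After GC and length correction 27 splicing regulators, 22 spliceosome genes and 18 decay genes were lower. The splicing regulators had 7 lower members without replicate 3 of NTC or of KHSRPi#2, and the decay list, at 10.9% higher and 19.6% lower, had 2 higher and 2 lower without NTC replicate 3, 3 and 5 without that of KHSRPi#1, and 3 and 3 without that of KHSRPi#2; XRN1 was not called without NTC replicate 3 (adjusted p = 0.0576).

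Cell cycle genes gave no common direction. Of 49 genes of the G1/S transition and DNA replication 7 rose and 7 fell, shares on either side of those of all genes. RRM2, a subunit of ribonucleotide reductase, was at 238, 247 and 238 TPM against 282 to 299 TPM (median 290.1), and cyclin E2 (CCNE2) at 39.8, 46.7 and 47.7 TPM against 49.8 to 63.5 TPM (median 59.6); RFC4 and UHRF1 rose by 0.18 and 0.21. Of 50 G2/M genes 11 rose and 2 fell (22% and 4%, against 18.7% and 11.6% of all tested genes). Among them were the microtubule bundler PRC1 (0.22), the kinase AURKB (0.16) and CDC20 (-0.19), an activator of the anaphase-promoting complex. Without replicate 3 of NTC, KHSRPi#1 and KHSRPi#2 the higher G2/M genes numbered 2, 5 and 6, and the higher G1/S genes 2 in each case. The lower G1/S genes numbered 14, 12 and 16 under median-ratio rescaling, quantile normalization and GC and length correction, and 3 and 2 without replicate 3 of NTC and of KHSRPi#2. Of 28 p53 pathway genes 7 rose and 5 fell (25% and 17.9%), near the 18.7% and 11.6% of all tested genes. CCNG1 was at 149.7, 143 and 151 TPM against 102 to 118 TPM (median 108), while the cell cycle inhibitor CDKN1A (p21) fell by 0.54 and FDXR by 0.48. The lower members of the p53 list numbered 2 and 3 without replicate 3 of NTC and of KHSRPi#1, and the higher 4 without that of KHSRPi#2.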

How the data were processed

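RNA was sequenced from 9 libraries of CAL-1 cells; per the labels' protocols RNA was taken with NucleoSpin RNA Plus XS columns and libraries were built with Roche Kapa reagents. The authors deposited a single TPM table, with 1 row for each symbol, which scales each library to a sum of 1000000, on build hg38 per the submitters' processing notes; the sources used here name no aligner, counting tool, annotation or use of strand. Antisense genes therefore cannot be told from their partners. Groups and replicate numbers come from the sample titles. Since no source calls the replicates separate cultures, the spread behind each p-value is that between libraries, which may be technical. TPM keeps no read totals, so the depth in reads is unknown, no interval from counts can be given, and precision rests on the replicates; relative depth was read from the spacing of low values.

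Testing was done on genes averaging 1 TPM or more, with limma 3.58.1 in R 4.3.3 on log2(TPM + 1), a pseudocount of 1, which understates the change of low genes (eBayes with an intensity trend, two-sided, Benjamini-Hochberg adjustment over all 10939 genes, called under 0.05). The fit had group and replicate 3 as terms and 5 residual degrees of freedom; replicate number as 3 levels left 4, and group by replicate 3 status left 3. The fits were tested on simulated data. Of 1648 listed genes 1639 matched a row, 88 by an older symbol. Lists are described by counts and medians, with no test. Named genes were up to 12 per direction with the largest difference among called genes whose replicate 3 library lay beyond both others in every group, up to 6 per direction by abundance among the same genes, up to 5 members of each list by adjusted p, up to 4 per direction for the knockdown difference, the label check genes and the genes nearest the filter; others were named after their values were seen. The members and lists were chosen with earlier results of these data known.

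Promoter windows are RefSeq's (GRCh38.p14), matched by symbol for 8336 tested genes; positions are from GENCODE 29 (hg38), which also gave GC content and length for 10501 (96%). Alternatives were pseudocounts of 0.1 and 5, testing without any filter or from a mean of 5 TPM upwards, quantile normalization, median-ratio rescaling, GC and length correction (splines with 5 degrees of freedom), robust eBayes, array weights, a minimum log2 difference of 1, a replicate block, alone and with GC and length correction, and leaving out each library. Some genes of the lists are counted but not reported here by name.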

Additional observations from a re-analysis of the deposited data

Results flagged for a closer look

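TMEM210 was called for a difference between knockdown and control in the replicate 3 difference, at 1.23 on the log2 scale (SE 0.14, limma adjusted p = 0.0412). It encodes a transmembrane protein and was at 10.6, 10.2 and 5.96 TPM in replicates 1, 2 and 3 of NTC, 7.74, 7.03 and 12.9 TPM in KHSRPi#1 and 7.09, 7.09 and 9.04 TPM in KHSRPi#2, so replicate 3 was the lowest in control and the highest in both knockdown groups. Over its alternatives the adjusted p ran from 0.00705 with a filter at a mean TPM of 5 to 0.144 under quantile normalization, and it did not pass with no filter, median-ratio rescaling or GC and length correction, nor without NTC replicate 1, KHSRPi#1 replicate 2, or either replicate 1 or 2 of KHSRPi#2.

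RN7SL3, a copy of the signal recognition particle RNA, was called for a difference between the knockdown groups, 2.94 for KHSRPi#2 minus KHSRPi#1 (SE 0.25, adjusted p = 0.00198). It is listed at 0 in 7 libraries and at 4.55 and 6.69 TPM in replicate 3 of NTC and of KHSRPi#2, so the call rests on 1 library against 1. With a pseudocount of 0.1 it did not pass (6.09, adjusted p = 0.123). RN7SL copies are near-identical, so reads may be split between them.

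The other genes with the smallest adjusted p for the knockdown difference did not pass: RNVU1-11 (1.49, adjusted p = 0.229), SNORD48 (1.60, 0.348) and ARF4-AS1 (1.13, 0.483) had positive differences. LINC01771 (-0.96, 0.483), RN7SL3 (-1.001, 0.737), HIST1H2AK (-1.77, 0.737) and HIST1H2BI (-1.55, 1) had negative ones.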

How the results depend on the processing

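Of the 3314 calls for replicate 3, 3281 and 3295 were shared with pseudocounts of 0.1 and 5, and direction depended on scaling as given in the report. The 1269 lower genes became 2518 after GC and length correction, 1976 with array weights and 2497 with the replicate block and the correction together; a minimum log2 difference of 1 left 9 (8 higher, 1 lower). The main fit did not treat libraries with the same number as pairs. Deviations from the group mean correlated between groups at 0.62 to 0.63 for number 3, which restates the correlations of the replicate 3 difference. They correlated at 0.21 to 0.23 for number 2 and 0.16, 0.04 and 0.32 for number 1. Between a replicate 1 and a replicate 2 of different groups the correlations were 0.24 to 0.37. The replicate block gave 3083 calls (1918 higher, 1165 lower), 3043 of them shared, and FTL, CREB3L2, DDIT3 and CD4 were not called in it. With no filter replicate 3 differed from replicate 1 in 1631 genes and from replicate 2 in 1519. The test of knockdown against control gave 45 genes with no filter, 2 with a filter at a mean TPM of 5, and 0 with median-ratio rescaling and 0 with quantile normalization; that between knockdown groups gave 0 with a pseudocount of 0.1, 63 with no filter and 0 with the filter at 5. Leaving out 1 library gave 1802 to 3328 calls for replicate 3 (1112 to 2127 higher, 660 to 1370 lower), 0 to 5 between replicates 2 and 1, and 1168 to 2966 and 1063 to 2933 for replicate 3 against replicate 1 and 2. It gave 0 to 4 genes for knockdown against control and 1 to 7 between knockdown groups; these could not be fitted without the replicate 3 library they rest on. List counts ranged over 18 to 22 higher for sterol, 7 to 12 for fatty acid, 16 to 25 for actin, 5 to 11 for FOXO and nutrient, 8 to 21 for integrated stress response and 7 to 9 for lineage genes. Lower counts were 26 to 30 for proteasome, 26 to 40 for nucleolar, 12 to 20 for endoplasmic reticulum, 12 to 21 for chaperone, 6 to 12 for snoRNA host and 6 to 11 for lineage genes. Of the named genes that were called, 162 of 203 kept the call under every alternative that could be run. Of 12 named genes that were not called and were followed in the same way, 6 were called under some alternative. These were NFE2L1, PSMB1, TCF4, CXCR4, ERN1 and GAS5. The RPS12 difference was 0 within rounding under quantile normalization (9.50e-16). The sign turned for KHSRP, not called, whose difference ranged from -0.10 to 0.035 over the libraries left out. Depth in reads is unknown, so genes near 1 TPM are the least certain, and a gene that did not pass was not shown to be equal.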

Other observations

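Other gene groups are given here against the 18.7% higher and 11.6% lower among all tested genes. Of 45 tested autophagy and lysosome genes 12 were higher and 6 lower in replicate 3, among them GABARAPL2 (0.39), which joins autophagosome membranes, and the sterol-binding lysosomal protein NPC2 (0.32), while the protease CTSZ was lower (-0.28). Without replicate 3 of NTC and of KHSRPi#1 the higher members numbered 5 and 6, and after GC and length correction 11 were higher and 12 lower. Of 38 peroxiredoxin, thioredoxin and glutathione genes 7 were higher and 9 lower. The mitochondrial and cytosolic isocitrate dehydrogenases IDH2 and IDH1 rose (0.56 and 0.31) and the peroxiredoxin PRDX1 fell (-0.26); without any one replicate 3 library the lower members numbered 3, and after GC and length correction 5 were higher and 15 lower. Of 23 BCL2 family genes 5 were higher, BCL2 itself among them (0.34), and 2 lower, of which one was the BH3-only gene BMF (-0.43).

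Nuclear-encoded respiratory chain subunits had 13 of 77 higher and 4 lower, with SDHA (0.18) and NDUFB6 (0.24) higher and cytochrome c (CYCS, -0.20) lower; the higher members numbered 8, 6 and 5 without replicate 3 of NTC, KHSRPi#1 and KHSRPi#2. The balance of this list turned with the scaling, at 7 higher and 5 lower under median-ratio rescaling and 9 higher and 15 lower after GC and length correction. KRAB zinc finger genes had 1 of 99 higher and 13 lower, a share of lower genes that depended on the scaling: 23, 30 and 33 were lower under median-ratio rescaling, quantile normalization and GC and length correction, and 3, 6 and 4 without replicate 3 of NTC, KHSRPi#1 and KHSRPi#2.

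Direction varied with abundance. In the tenth of tested genes with the lowest mean TPM 17.5% were higher and 3.84% lower, and in the tenth with the highest 14.9% and 26.0%; across genes the difference had a Spearman correlation of -0.21 with mean TPM, which is itself made from these libraries, and genes are not independent replicates. The correlation was 0.03 with transcript length and -0.01 with GC content, the latter over groups that gave -0.11 in NTC and 0.04 and 0.05 in KHSRPi#1 and KHSRPi#2, whereas the difference between replicates 2 and 1, which called 0 genes at an adjusted p under 0.05 in limma and 376 at an unadjusted p under 0.05, correlated at -0.32 with GC content. The part of abundance or base composition in the replicate 3 difference was not tested.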
